A study of Sus scrofa with 6 samples.

Results

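The 7 subunits of respiratory complex I that pigs encode in the mitochondrial genome, ND1, ND2, ND3, ND4, ND4L, ND5 and ND6, were followed in RNA from porcine oocytes. They were taken by their gene symbols from a table of 29861 genes, and all 7 were present with a value in every sample. The groups were control oocytes, oocytes cultured under heat stress, and oocytes cultured under heat stress with nicotinamide mononucleotide (NMN), a precursor of the coenzyme NAD+, in the medium. Each group had 2 samples. All oocytes came from ovaries of slaughtered pigs and were matured in vitro, and each sample was a pool of oocytes. The labels give a time of 24 h and the germinal vesicle (GV) stage for all 6 samples, whereas the methods give metaphase II for the sequenced oocytes, so the stage is not settled here. Nothing in the labels says that the samples of a group came from separate cultures, and P-values therefore measure only the spread between these samples, which may be technical.

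Complex I (NADH:ubiquinone oxidoreductase) takes electrons from NADH, passes them to ubiquinone and pumps protons across the inner mitochondrial membrane. The mitochondrially encoded subunits form the core of its membrane arm, and the remaining subunits are made from nuclear genes and imported. Mitochondrial genes are transcribed as long precursors from either strand of the circular genome, which are cut mostly at the tRNAs between the genes and then in most cases polyadenylated. Oocytes hold very many mitochondria and rely on oxidative phosphorylation for ATP.

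In the Sscrofa11.1 annotation the mitochondrial genome (MT) is 16613 nt long and holds 13 protein genes. ND1 lies at MT:3922-4876, between the tRNAs for leucine and isoleucine, and ND2 at MT:5087-6128, between those for methionine and tryptophan. ND3 lies at MT:10653-10998, between the tRNAs for glycine and arginine. ND4L (MT:11069-11365) and ND4 (MT:11359-12736) follow each other with no tRNA in between, and likewise ND5 (MT:12935-14755) and ND6 (MT:14739-15266). ND6 is on the minus strand and the other 6 genes are on the plus strand. All are coding sequence without introns, from 297 nt (ND4L) and 346 nt (ND3) to 1821 nt (ND5). Read along its own strand, ND6 had 27.1% G and 7.20% C, against 9.60% to 12.8% G and 24.9% to 29.8% C in the other members.

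The 3′ ends are shown because the members differ there. In ND1, ND2, ND3 and ND4 the annotation gives a stop codon of which the genome holds a single T, with the remaining bases supplied by the poly(A) tail, whereas ND4L, ND5 and ND6 end in a complete TAA. The last 30 nt of each gene follow, 5′ to 3′ on the gene's own strand, with the stop bases present in the genome in capitals.
ND1 (MT:4847-4876, plus): ttataacagcaagcattcccccacaatcaT
ND2 (MT:6099-6128, plus): ctataacaccagccctctcgtccctaaacT
ND3 (MT:10969-10998, plus): gaacccaaaaaggcctagaatgagcagaaT
ND4 (MT:12707-12736, plus): accctaaaataatcctaggacccctttacT
ND4L (MT:11336-11365, plus): gtccaaaacttaaaccttttacaatgcTAA
ND5 (MT:14726-14755, plus): agcataacactatttaattaccacgagTAA
ND6 (MT:14739-14768, minus): gttattatagagattactcgtggtaatTAA

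Both overlaps between members are shown because the deposited table gives ND4L and ND4 the same locus, and ND5 and ND6 the same locus. Fragments within the shared bases could belong to either gene. No tRNA lies between the genes of either pair, so their FPKM need not come from separate RNAs. Capitals mark the bases that belong to both genes, 7 nt on the same strand in ND4L and ND4, and 17 nt on opposite strands in ND5 and ND6.
ND4L/ND4 (MT:11335-11389, plus): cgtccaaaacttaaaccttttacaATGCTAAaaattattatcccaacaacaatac
ND5/ND6 (MT:14715-14779, plus): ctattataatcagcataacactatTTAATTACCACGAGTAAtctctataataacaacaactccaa
The methods do not name a library kit that keeps the strand, so reads of ND6 and reads of the opposite strand at its position cannot be told apart.

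The deposited values are FPKM, the number of fragments per kilobase of transcript scaled to the mapped fragments of the sample. Whether this makes genes as short as ND4L (297 nt) and ND3 (346 nt) comparable with longer ones was not tested. No read totals were used, which leaves the sequencing depth of the samples unknown. The 13 mitochondrial protein genes made up 61.7% to 74.7% of the summed FPKM of a sample. That sum ranged from 163929 to 290136 FPKM and was highest in heat stress replicate 1, in which LOC100513953, listed at 0 in the other 5 samples, took 13.9%. The oocyte markers (12 of 12 in the table, among them the zona pellucida genes ZP2, ZP3 and ZP4) summed to between 2942 and 3700 FPKM. The cumulus and granulosa cell markers summed to between 0.557 and 1.21 FPKM over 11 genes, with AMH and INHA at 0 in every sample. Of the 11 oocyte markers tested, 4 were lower in heat stress than in control, 1 was lower with NMN than in heat stress and 6 were lower with NMN than in control at an unadjusted P under 0.05, and none was higher, where 10.1%, 6.45% and 15.7% of all 4713 genes tested were lower. The part of this in the results for the complex I genes was not tested. FPKM of pooled oocytes cannot tell a change in the number of oocytes from a change in RNA per oocyte, nor more mitochondrial RNA from less RNA of other genes.

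All 7 transcripts were among the 15 genes with the highest mean FPKM of the table. ND3 was the most abundant member (mean of 9502 FPKM over the 6 samples, rank 6 of all genes), followed by ND2 (6331, rank 9), ND4 (3803, rank 10), ND5 (3158, rank 11), ND6 (2964, rank 13), ND4L (2295, rank 14) and ND1 (2253, rank 15). The order ND3, ND2, ND4 and ND5 held in 6 of 6 samples. The places of the short genes ND3 and ND4L rest on the length scaling, which was not tested here. ND5 was above ND6, and ND6 above ND4L, in 5 of 6 samples each, and ND4L was above ND1 in 4 of 6. In the control group the samples of ND5, ND6, ND4L and ND1 overlapped from each neighbour to the next, as did those of ND4 and ND5, whereas in the NMN group every neighbour in this order was apart.

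**Figure D1:**
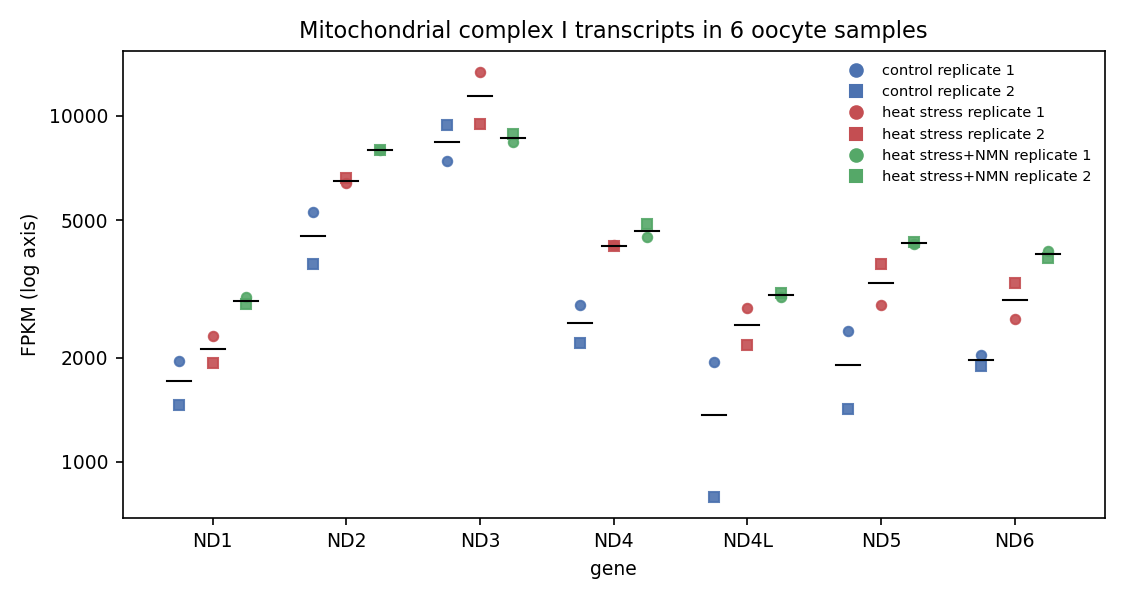
FPKM (log axis) of each complex I gene of the mitochondrial genome in the 6 oocyte samples, with circles for replicate 1, squares for replicate 2 and bars for group means. In 6 of the 7 genes both samples with NMN lie above both control samples, as in 43.5% of all genes tested, and ND3 is the exception.

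ND1, which with ND3 lies where the membrane arm joins the peripheral arm and helps to form the ubiquinone channel, had 1958 and 1464 FPKM in control replicates 1 and 2. It had 2316 and 1931 FPKM in heat stress and 2990 and 2862 FPKM in heat stress with NMN. The control and heat-stressed samples overlapped, and both NMN samples lay above the other 4.

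ND3, which carries a loop that moves between the active and resting forms of the enzyme, had 7398 and 9420 FPKM in control. Its FPKM was 13401 and 9481 in heat stress and 8422 and 8893 in heat stress with NMN. Heat stress replicate 1 stood far above the other 5 samples, while heat stress replicate 2 was barely above control replicate 2, and the NMN samples lay between the control samples.

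ND2, ND4 and ND5 are the large proton-pumping subunits of the membrane arm and are related to bacterial antiporters. ND2 had 5273 and 3738 FPKM in control, 6386 and 6606 in heat stress, and 7997 and 7986 with NMN. ND4 had 2850 and 2206 FPKM in control, 4227 and 4206 in heat stress, and 4456 and 4873 with NMN. ND5, the subunit at the tip of the arm, had 2390 and 1420 FPKM in control, 2839 and 3730 in heat stress, and 4251 and 4319 with NMN. For each of these genes the groups did not overlap and stood in the order control, heat stress, heat stress with NMN. The share of all genes tested in this order was not computed. Of all genes tested, 31.6% had both heat-stressed samples above both controls. Both NMN samples were above both heat-stressed samples in 35.9%.

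ND4L and ND6 are small membrane subunits between the pumping subunits and the ubiquinone site. ND4L had 1941 and 794 FPKM in control, 2793 and 2171 in heat stress, and 3000 and 3070 with NMN. Its control samples differed by a larger factor than those of any other member, with control replicate 2 the lowest value of all 7 genes. ND6 had 2038 and 1893 FPKM in control, 2593 and 3288 in heat stress, and 4076 and 3897 with NMN. The groups of ND4L and of ND6 did not overlap and stood in the same order as for the pumping subunits. From the lowest to the highest sample the FPKM ratio was 3.87 for ND4L and 3.04 for ND5, and it was between 1.81 (ND3) and 2.21 (ND4) for the others.

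Heat-stressed oocytes were compared with control oocytes to ask what heat alone did to these transcripts. At the deposited FPKM, ND2, ND4, ND5 and ND6 rose at an unadjusted P under 0.05, but none passed an adjusted P under 0.05. The direction turned under quantile normalization for ND1, ND2, ND3, ND4 and ND6. It also turned with samples scaled to the 13 mitochondrial protein genes for ND1, ND2 and ND3, to all genes for ND1 and ND3 and to genes outside the mitochondrial genome for ND1. All 13 mitochondrial protein genes were among the 15 genes with the highest mean FPKM. Quantile normalization therefore sets them by their ranks and would take out part or all of any rise that they share. ND4 differed by 0.75 ± 0.16 on the log2(FPKM + 1) scale (SE; limma adjusted P = 0.122), from a mean of 2528 ± 455 to 4216 ± 14.5 FPKM (SD, n = 2 each). ND6 differed by 0.57 ± 0.15 (limma adjusted P = 0.142), from 1966 ± 102 to 2940 ± 492 FPKM. The other differences that passed the unadjusted threshold were 0.82 ± 0.28 for ND5 and 0.55 ± 0.19 for ND2 (limma adjusted P of 0.184 and 0.185). ND4L differed by 0.99 ± 0.42, with a 95% confidence interval from −0.05 to 2.02 (limma adjusted P = 0.233), and by 0.34 without control replicate 2 and 1.63 without control replicate 1. ND3 (0.43 ± 0.22) and ND1 (0.32 ± 0.18) did not pass either, with limma adjusted P of 0.292 and 0.341. For ND1 the samples of both groups overlapped, and for ND3 they met at nearly the same level.

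In this comparison 4 of 7 members were higher and 0 lower at an unadjusted P under 0.05, where 12.7% of the 4713 genes tested were higher and 10.1% lower. No gene passed limma with an adjusted P under 0.05 (0.0% of genes, with 598 higher and 476 lower at an unadjusted P under 0.05). The median log2 difference was 0.57 over the members, 0.60 over the other 6 mitochondrial protein genes, of which 5 were higher at an unadjusted P under 0.05, and 0.05 over all genes tested. Over the 72 genes outside the mitochondrial genome with a mean of at least 100 FPKM, a level chosen after seeing the data, it was 0.06. With each sample scaled to the same summed FPKM of all genes, 0 members were called with limma, and 23 genes were higher and 1351 lower. The 13 mitochondrial protein genes made up 61.7% to 74.7% of that sum, so this scaling would take out much of any rise that they share. That scaling moved the median of all genes to −0.34, and the members' median stood 0.41 above it, against 0.52 above at the deposited FPKM. Both samples in heat stress were above both controls in 6 of 7 members, and in none were both below, where 31.6% of all genes tested had both above and 23.2% both below. Without control replicate 2, ND4 and ND6 differed by 0.57 and 0.52, and ND5 and ND2 by 0.45 and 0.30. The median over the members was then 0.45, and it was 0.74 and 0.62 without heat stress replicates 1 and 2.

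**Figure D2:**
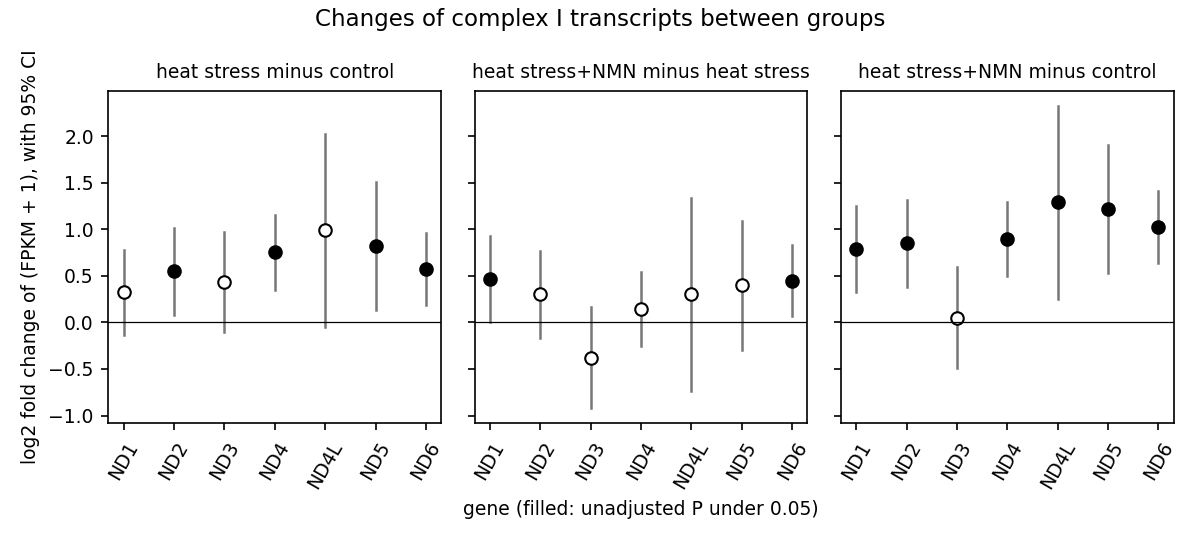
Log2 difference of FPKM + 1 for each complex I gene in the 3 comparisons, with 95% confidence intervals from limma over 6 samples; filled circles have an unadjusted P under 0.05. Values are above 0 except for ND3 between heat stress with NMN and heat stress (−0.38), and under quantile normalization 5 of the 7 differences between heat stress and control, and that of ND3 between NMN and control, fall below 0. That normalization sets these top-ranked genes by rank and would take out part or all of any shared rise.

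Oocytes heat-stressed with NMN were compared with those heat-stressed without it to ask what the supplement changed. ND1 and ND6 rose at an unadjusted P under 0.05, and 4 further members were above heat stress by less than the test could separate from the spread. ND1 differed by 0.47 ± 0.18 (limma adjusted P = 0.360), from 2124 ± 272 to 2926 ± 90.8 FPKM. ND6 differed by 0.45 ± 0.15 (limma adjusted P = 0.350), from 2940 ± 492 to 3987 ± 127 FPKM. ND5, ND4L, ND2 and ND4 differed by 0.40, 0.30, 0.30 and 0.14, with limma adjusted P between 0.455 and 0.725. For ND4L the 95% confidence interval ran from −0.74 to 1.34 and for ND4 from −0.26 to 0.54. ND3 was below 0, at −0.38 ± 0.22 (limma adjusted P = 0.424), with −0.13 without heat stress replicate 1 and −0.63 without heat stress replicate 2, and reached 0.01 when samples were scaled to the summed FPKM of genes outside the mitochondrial genome.

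The samples of these groups did not overlap in any of the 7 members, with the NMN samples higher in 6 genes and lower in ND3. Over all genes tested, 35.9% had both NMN samples above both heat-stressed samples and 17.6% had both below. Of all genes tested, 7.15% were higher and 6.45% lower at an unadjusted P under 0.05, against 2 and 0 of the 7 members, and no gene passed limma with an adjusted P under 0.05 (0.0%, with 337 higher and 304 lower unadjusted). The median log2 difference was 0.30 over the members, 0.07 over the other mitochondrial protein genes, 0.08 over all genes tested and −0.01 over the 72 abundant genes outside the mitochondrial genome. Among the other mitochondrial protein genes 0 of 6 passed limma at an unadjusted P under 0.05. With samples scaled to the summed FPKM of all genes, 1 member was called, and 57 genes were higher and 214 lower. Without either NMN sample 0 members were called. Without heat stress replicate 1, ND1 differed by 0.60 and ND6 by 0.28. Without heat stress replicate 2, ND1 differed by 0.34, ND6 by 0.62 and ND3 by −0.63.

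Oocytes heat-stressed with NMN were also compared with controls. ND1, ND2, ND4, ND5 and ND6 rose with an adjusted P under 0.05, ND4L rose at an unadjusted P only, and ND3 did not move beyond its spread. ND6 differed by 1.02 ± 0.15, a ratio of the log-scale means of 2.03 (limma adjusted P = 0.0210). ND5 differed by 1.22 ± 0.28 (adjusted P = 0.0369), a ratio of 2.33, with group means of 1905 ± 686 and 4285 ± 48.5 FPKM. ND4, ND2 and ND1 differed by 0.89 ± 0.16, 0.85 ± 0.19 and 0.79 ± 0.18, with limma adjusted P of 0.0255, 0.0348 and 0.0389. ND4L differed by 1.29 ± 0.42 (limma adjusted P = 0.0758), and by 0.64 without control replicate 2 and 1.93 without control replicate 1. ND3 differed by 0.05 ± 0.22, with a 95% confidence interval from −0.49 to 0.59 (limma adjusted P = 0.872), and its sign turned without control replicate 1 and with samples scaled to the summed FPKM of all genes or of the mitochondrial protein genes, or quantile normalized.

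Here 6 of 7 members were higher and 0 lower at an unadjusted P under 0.05, where 25.6% of all genes tested were higher and 15.7% lower. With an adjusted P under 0.05, 5 of 7 members were called, against 21.5% of genes in either direction. Both NMN samples were above both controls in 6 members, and in none were both below, where 43.5% of all genes tested had both above and 26.4% both below. The median log2 difference was 0.89 over the members, 0.62 over the other 6 mitochondrial protein genes, of which 5 were higher unadjusted and 3 adjusted, 0.11 over all genes tested and 0.05 over the 72 abundant genes outside the mitochondrial genome. With samples scaled to the summed FPKM of all genes, 2 members were called at an unadjusted P under 0.05, and 63 genes were higher and 1329 lower, against 1208 and 740 at the deposited FPKM. The count of 5 with an adjusted P fell to 0 when genes down to a mean of 0.1 FPKM were tested, where 86 of 11651 genes passed. The smallest limma adjusted P of a member was then 0.0505. Without control replicate 1 or 2 the members' median difference was 1.08 or 0.64, and without NMN replicate 1 or 2 it was 0.96 or 0.85. The count was also 0 with samples scaled to the summed FPKM of all genes, where 774 of 4784 genes passed. Scaled to the 13 mitochondrial protein genes it was 0 (1425 of 4804 genes), and quantile normalized 0 (788 of 4713). With samples scaled to genes outside the mitochondrial genome it was 2 (278 of 4768).

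**Figure D3:**
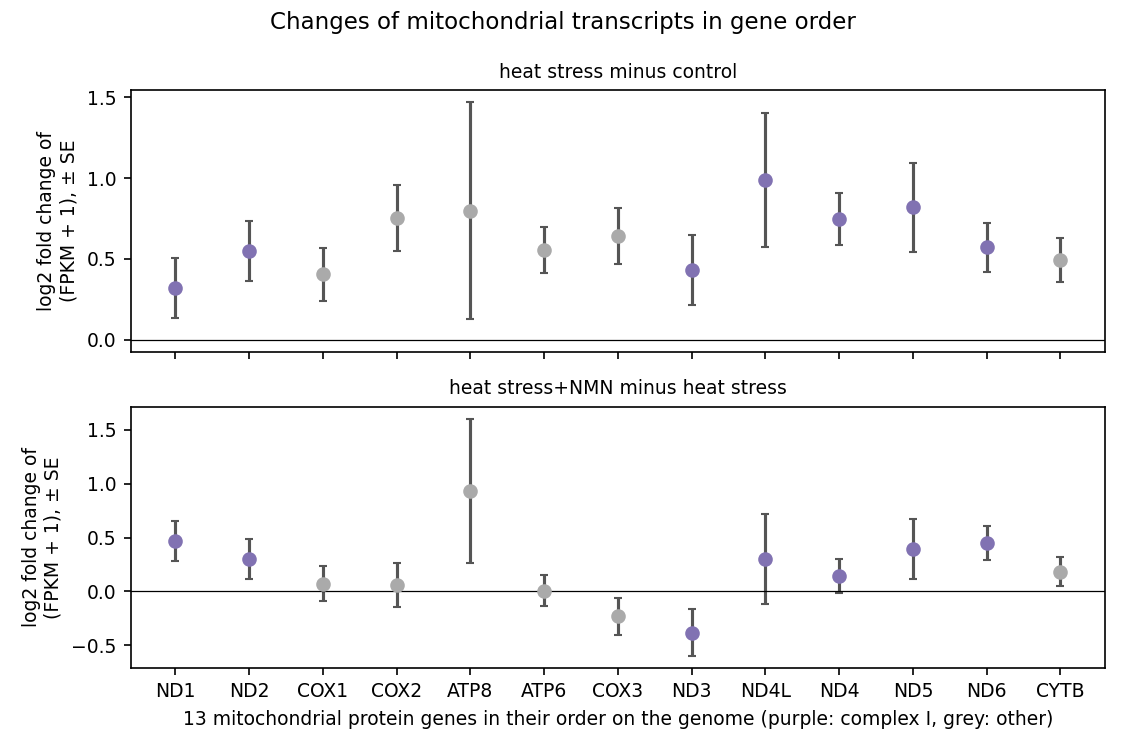
Log2 difference of FPKM + 1 (± SE from limma, 6 samples) of the 13 mitochondrial protein genes in their order along the genome, complex I genes in purple and others in grey. Between heat stress and control all 13 points are above 0 at the deposited FPKM (5 complex I genes are below 0 under quantile normalization, which sets these top-ranked genes by rank). Between NMN and heat stress COX3 (−0.23) and its neighbour ND3 (−0.38) are below 0.

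The neighbours of ND3 were looked at next. COX3, a cytochrome c oxidase subunit separated from ND3 by a tRNA gene, had the same sign as ND3 between NMN and heat stress at the deposited FPKM (−0.23 ± 0.17, limma adjusted P = 0.512), whereas ND4L, after the next tRNA, had the opposite sign. The ratio of ND3 to COX3 FPKM was 0.456 and 0.542 in control, 0.446 and 0.416 in heat stress, and 0.374 and 0.403 with NMN. The ratio of ND3 to ND4 FPKM was 2.60 and 4.27 in control, 3.17 and 2.25 in heat stress, and 1.89 and 1.83 with NMN. In both ratios the NMN samples lay below the other 4 samples. A ratio within a sample does not depend on the scaling of that sample. Comparisons of 2 against 2 samples by an exact permutation test cannot give a P below 0.333, which is what each of these ratios gave between NMN and control.

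Across the 6 samples, the log2 FPKM of ND1, ND2, ND4, ND4L, ND5 and ND6 had pairwise Pearson correlations between 0.776 (ND4L with ND6) and 0.986 (ND2 with ND5). Those of ND3 with the others were between −0.056 and 0.239. These values describe 6 samples that share their groups and the scaling of each library.

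As a share of the summed FPKM of the 13 mitochondrial protein genes, which removes any scaling of a sample, the 7 members together took 20.1% and 20.7% in control, 19.1% and 21.5% in heat stress, and 19.8% and 20.4% with NMN. The means were 20.4% ± 0.40, 20.3% ± 1.71 and 20.1% ± 0.40 (SD, n = 2 each). The groups overlapped, and their means differed by less than the spread of the heat-stressed samples. In a sum without ATP8, ND3 and ND4L, the shortest genes, the direction turned. The remaining 5 members then took 15.4% and 12.3% in control, 12.6% and 15.8% in heat stress, and 17.3% and 17.0% with NMN. Both NMN samples lay above the other 4, and the difference of means from heat stress and from control was 2.93 and 3.29 percentage points, in place of −0.183 and −0.284. Shares of a sum are not independent of each other, since a rise in the share of a gene lowers the others.

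Within this sum, ND3 took 6.24% and 9.31% in control, 7.40% and 6.49% in heat stress, and 4.75% and 5.05% with NMN. The NMN samples were the lowest 2 of the 6. Of the FPKM of complex I alone, ND3 made up 31.0% and 45.0% in control, 38.8% and 30.2% in heat stress, and 23.9% and 24.8% with NMN. Without ND3, the remaining 6 members took 13.9% and 11.4% of the 13 genes in control, 11.7% and 15.0% in heat stress, and 15.1% and 15.3% with NMN. The NMN samples were the highest here, by a small margin over heat stress replicate 2. In a fit scaled to the 13 genes, ND3 differed by −0.64 between NMN and control (limma adjusted P = 0.0643), and 0 members other than this passed the unadjusted threshold in the 3 comparisons of that fit.

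The share of ND1 was lowest in heat stress, without overlap, at 1.65% and 1.45% in control, 1.28% and 1.32% in heat stress, and 1.69% and 1.63% with NMN. Its ratio to ND4 was 0.687 and 0.664 in control, 0.548 and 0.459 in heat stress, and 0.671 and 0.587 with NMN, which again put the heat-stressed samples lowest. The shares of ND2, ND4, ND4L, ND5 and ND6 were higher with NMN than in control without overlap, by 0.349 (ND4) to 0.715 (ND5) percentage points between group means. For ND2, ND4, ND5 and ND6 the heat-stressed samples were spread around those of another group, with heat stress replicate 1 below replicate 2 in each. ND4L took 1.64% and 0.784% in control, 1.54% and 1.49% in heat stress, and 1.69% and 1.74% with NMN.

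**Figure D4:**
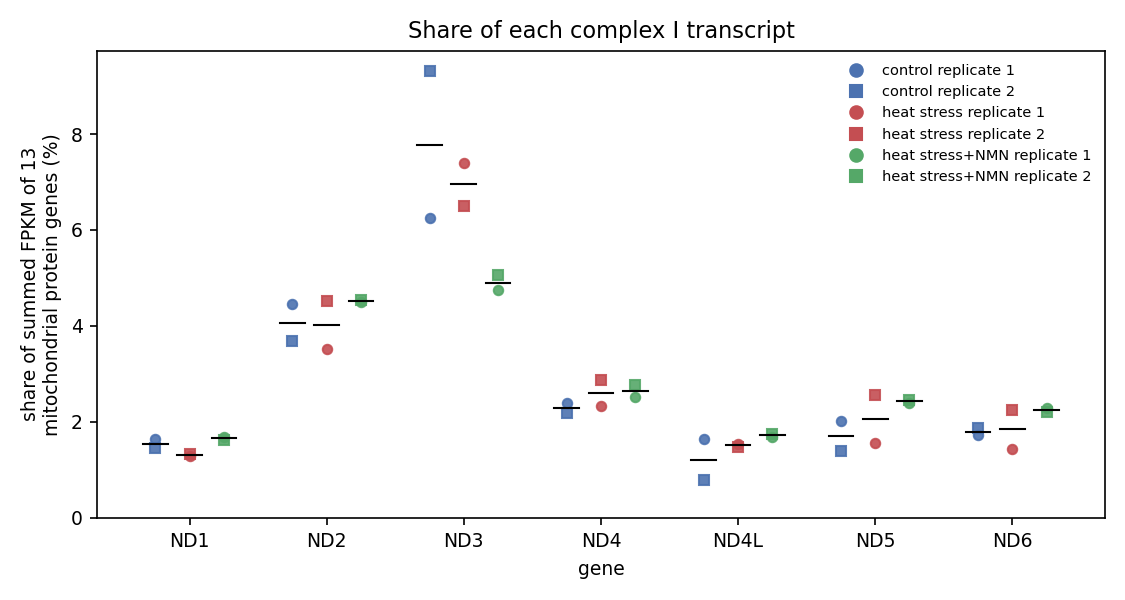
Share of each complex I gene in the summed FPKM of the 13 mitochondrial protein genes (%), by sample (circles replicate 1, squares replicate 2) with bars for group means. The ND3 share is lowest with NMN (4.75% and 5.05%), and the ND1 share is lowest in heat stress (1.28% and 1.32%).

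The pairs that share a locus were compared within each sample. ND4L to ND4 gave FPKM ratios of 0.681 and 0.360 in control, 0.661 and 0.516 in heat stress, and 0.673 and 0.630 with NMN. Control replicate 2 was the lowest, and the groups overlapped. In the same sample the ratio of ATP8 to ATP6, another pair in which a short gene overlaps a longer one, was also the lowest of the 6, at 0.171 against 0.295 to 0.865 in the other samples. The part of read assignment in the low ND4L of control replicate 2 was not tested. The 43 nt shared by ATP8 and ATP6 compare with the 7 nt of ND4L and ND4, whose overlap is shown in capitals among the sequences.

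ND6 to ND5, the pair on opposite strands, gave ratios of 0.853 and 1.33 in control, 0.913 and 0.881 in heat stress, and 0.959 and 0.902 with NMN. Control replicate 2 was the highest and the other 5 samples lay close together. In that sample ND5 and ND4L were both low against ND6. Reads of the opposite strand at ND6 cannot be told apart from its own. Their part in the FPKM of ND6 and in this ratio was not tested. ND5 to ND4, neighbours on the plus strand, gave 0.839 and 0.644 in control, 0.672 and 0.887 in heat stress, and 0.954 and 0.886 with NMN, so that the NMN samples were above the controls without overlap.

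**Figure D5:**
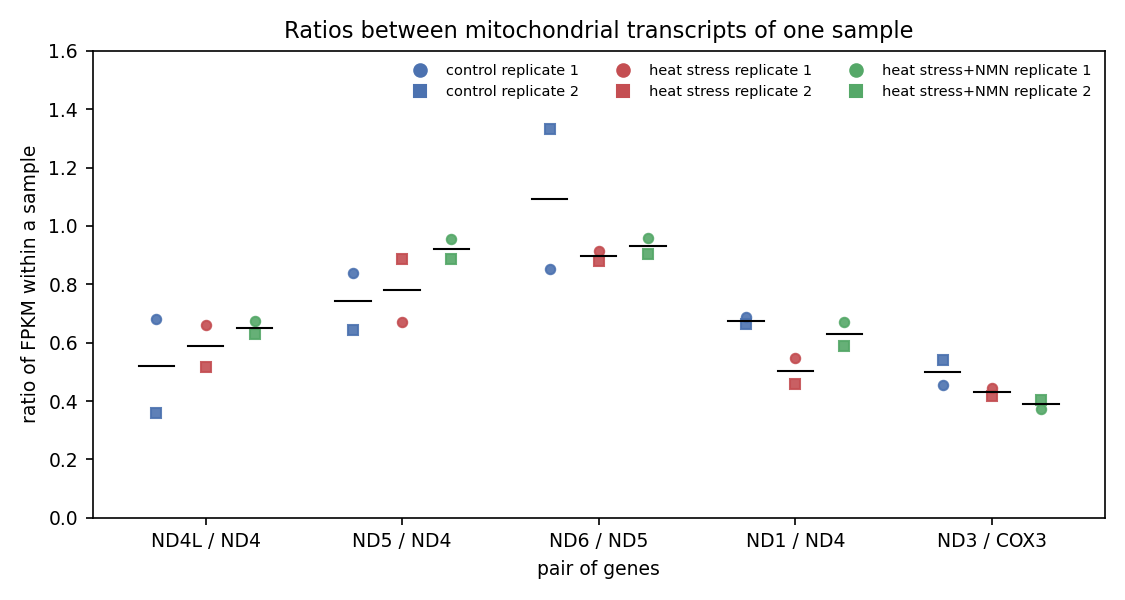
Ratio of FPKM between pairs of mitochondrial transcripts within each of the 6 samples (circles replicate 1, squares replicate 2, bars for group means). Control replicate 2 is lowest for ND4L to ND4 (0.360) and highest for ND6 to ND5 (1.33), and ND3 to COX3 is lowest with NMN (0.374 and 0.403).

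The nuclear subunits of complex I stood far below the mitochondrial ones. All 37 listed were in the table, with a median level of 0.162 FPKM, and their summed FPKM was 25.9 and 28.3 in control, 17.7 and 19.9 in heat stress, and 15.8 and 12.96 with NMN. The groups did not overlap and stood in the reverse of the order of most mitochondrial members. The mitochondrial sum exceeded the nuclear sum by 922 and 740 times in control, 1958 and 1582 times in heat stress, and 2230 and 2771 times with NMN. Because both sums come from the same sample, this ratio does not depend on its scaling.

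Of the 37 nuclear subunits, 5 reached the mean of 1 FPKM needed for the test, NDUFA1, NDUFA6, NDUFB5, NDUFB11 and NDUFC2. Between heat stress and control, 2 of 5 were lower and 0 higher with limma at an unadjusted P under 0.05, where 10.1% of all genes tested were lower. NDUFA6 had 3.40 and 5.11 FPKM in control, 1.71 and 2.26 in heat stress, and 1.69 and 1.34 with NMN. It differed by −0.80 ± 0.20 between heat stress and control (limma adjusted P = 0.137) and by −1.05 ± 0.20 between NMN and control (adjusted P = 0.0287). NDUFB11 differed by −0.89 ± 0.29 between heat stress and control (limma adjusted P = 0.179). Between NMN and heat stress 0 of 5 passed limma at an unadjusted P under 0.05, and the differences of these genes ran from −0.27 to −0.02 but were above 0 in part when scaled to genes outside the mitochondrial genome. Between NMN and control 3 of 5 were lower and 0 higher unadjusted, where 15.7% of all genes tested were lower, with NDUFC2 (−0.78 ± 0.21) the third. With an adjusted P under 0.05, 1 of 5 was called, close to the 21.5% of all genes tested called in either direction. With a minimum mean of 0.1 FPKM, 26 subunits were tested, of which 7 were lower and 1 higher in heat stress than in control, 2 lower with NMN than in heat stress and 11 lower with NMN than in control. Of the 11651 genes tested at that minimum, 8.99%, 5.64% and 14.5% were lower in these comparisons, and 7.02% were higher in heat stress than in control.

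Proteins that assemble complex I or act on mitochondrial RNA were listed as well. Of 19 assembly factors, 16 were in the table and 6 were tested, of which 0 passed limma at an unadjusted P under 0.05 between heat stress and control. TMEM186, a factor of the assembly complex for the ND2 module, had 4.08 and 3.26 FPKM in control, 4.24 and 4.35 in heat stress, and 0.860 and 1.53 with NMN. It differed by −1.29 ± 0.19 between NMN and heat stress (limma adjusted P = 0.213) and by −1.10 ± 0.19 between NMN and control (adjusted P = 0.0237). NDUFAF7, a methyltransferase that modifies a complex I subunit, differed by 0.42 ± 0.16 between NMN and heat stress (limma adjusted P = 0.360) and by 0.56 ± 0.16 between NMN and control (adjusted P = 0.0626).

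Of 25 factors of mitochondrial transcription and RNA processing, 24 were in the table and 8 were tested. GRSF1, an RNA-binding protein of the mitochondrial RNA granules known to bind ND6 mRNA, had 7.37 and 7.60 FPKM in control, 12.6 and 10.9 in heat stress, and 14.1 and 13.4 with NMN. Its groups did not overlap and stood in the same order as those of ND2, ND4, ND4L, ND5 and ND6. GRSF1 was not tested for a link to any of them. It differed by 0.59 ± 0.12 between heat stress and control (limma adjusted P = 0.118) and by 0.80 ± 0.12 between NMN and control (adjusted P = 0.0210), and it was the only factor of this list called between heat stress and control. FASTKD2, another RNA granule protein, had 5.20 and 3.44 FPKM in control, 4.83 and 6.03 in heat stress, and 7.97 and 6.98 with NMN, and differed by 0.69 ± 0.20 between NMN and control (adjusted P = 0.0613). TRMT10C, a subunit of the mitochondrial RNase P that cuts precursors at the 5′ ends of tRNAs, had 3.90 and 4.37 FPKM in control, 2.35 and 4.15 in heat stress, and 1.61 and 1.82 with NMN. It differed by −0.62 ± 0.22 between NMN and heat stress (limma adjusted P = 0.352) and by −0.92 ± 0.22 between NMN and control (adjusted P = 0.0404). DHX30, an RNA helicase of the granules, differed by 0.40 ± 0.13 between NMN and heat stress (limma adjusted P = 0.340) and by 0.36 ± 0.13 between NMN and control (adjusted P = 0.0887).

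Among all genes tested, those whose log2(FPKM + 1) followed the log2 summed FPKM of the 7 members most closely over the 6 samples were NAA30, LOC110262106, PGRMC1, PPM1A and PI4K2B, with Pearson correlations of 0.995, 0.995, 0.995, 0.992 and 0.991. All 5 are outside the mitochondrial genome. NAA30, the catalytic subunit of an N-terminal acetyltransferase, had 7.98 and 6.08 FPKM in control, 14.4 and 11.8 in heat stress, and 15.9 and 15.2 with NMN. PPM1A, a protein phosphatase, had 4.09 and 3.39 FPKM in control, 7.28 and 7.12 in heat stress, and 7.81 and 7.82 with NMN. In both genes the groups stood in the order control, heat stress, heat stress with NMN, without overlap. The summed FPKM of the members stood in this order too, and the genes were picked for following it, so their order is not a separate result. In LOC110262106 the heat-stressed samples (6.75 and 5.36 FPKM) and the NMN samples (6.16 and 6.90 FPKM) overlapped. These were the highest of 4713 correlations over 6 samples in 3 groups, and the same samples and libraries underlie every one of them.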

How the data were processed

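RNA of porcine oocytes was sequenced from 6 samples, grouped by the treatment in their labels. According to the methods and labels, the authors purified mRNA, made randomly primed libraries, used cutadapt for trimming and tophat2 for alignment to susScr11, and the submitters' processing notes name Cufflinks 2.2.1, Cuffnorm and Cuffdiff. The authors deposited FPKM of 29861 genes per sample. The table's columns of the authors' own comparisons (fold changes, P-values and q-values) and the lists of differentially expressed genes were not used.

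The FPKM were log2-transformed after adding 1 FPKM, and 4713 genes with a mean of at least 1 FPKM entered limma (version 3.58.1, R version 4.3.3) with all 6 samples in the fit, trended empirical Bayes moderation and Benjamini-Hochberg adjustment over all genes tested. Calls were made at 0.05. This transformation understates the changes of genes with low FPKM. The fit was tested on simulated data of 4713 genes, of which 200 were changed by 2 on the log2 scale between heat stress and control. Of these 193 passed the unadjusted and 178 the adjusted threshold, as did 5.07% of the unchanged genes unadjusted and 15 unchanged genes adjusted. Shares and ratios were computed on FPKM per sample. Gene positions and sequences were read from the mitochondrial genome of NCBI's Sscrofa11.1 annotation, which has the sequence identifier used in the deposited loci.

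The members and gene lists were chosen with earlier results of these data known. All 7 members are named. Of the nuclear subunits, assembly factors and RNA factors, those with an unadjusted P under 0.05 were named, at most 4 with the smallest P per list and comparison, and for likeness the 5 genes with the highest correlation. ATP8, ATP6, COX3 and LOC100513953 were named after their values were seen. Alternatives covered the pseudocount, the minimum FPKM, 6 other scalings (1 of them, which leaves out LOC100513953 and RN5-8S, chosen after seeing the data), the replicate block, the samples in the fit, the trend and leaving out each sample.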

Additional observations from a re-analysis of the deposited data

How the results depend on the processing

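The members' differences were refitted under 12 settings and with each sample left out. Of 252 refitted member values under the former, 197 kept their direction and side of the unadjusted threshold, as did 104 of 126 with a sample left out. Between heat stress and control (4 members called), 0 were called with samples scaled to the summed FPKM of all genes, of genes outside the mitochondrial genome or of the 13 mitochondrial genes, or quantile normalized, 2 with only the compared groups fitted, and 2 to 6 with a sample left out. Between NMN and heat stress (2 called), 1 was called with the all-gene scaling, 0 with quantile normalization or the 13-gene scaling, and 0 to 3 with a sample left out. Between NMN and control (6 called), the counts were 2, 0 and 1 under these 3, and 5 to 6 with a sample left out. These 3 settings scale to sums made up mostly or only of the mitochondrial genes, or set values by rank. They would take out part or all of any rise that these genes share. With the sum of genes outside the mitochondrial genome, which holds none of them, the counts were 0, 3 and 6. The part of a shared rise in the lost calls was not tested. With genes outside the mitochondrial genome scaled without LOC100513953 and RN5-8S, an alternative chosen after seeing the data, the counts stayed at 4, 2 and 6. Differences below 0 between heat stress and control were −0.19, −0.051, −0.24 and −0.25 for ND1 (all-gene, non-mitochondrial, quantile and 13-gene), −0.42 and −0.021 for ND2 (quantile and 13-gene), −0.074, −0.15 and −0.14 for ND3 (all-gene, quantile and 13-gene), −0.10 for ND4 and −0.14 for ND6 (quantile). ND3 moved to 0.0087 between NMN and heat stress (non-mitochondrial scaling) and, between NMN and control, to −0.42, −0.66 and −0.64 (all-gene, quantile and 13-gene) and from −0.12 to 0.23 with a sample left out, below 0 without control replicate 1. The 13-gene scaling moved the median of all genes to −0.40 between heat stress and control, with the members' median 0.40 above it. The splits of all genes called, higher and lower, were 17 and 1845, 34 and 325, and 26 and 2031 with the 13-gene scaling, and 32 and 536, 193 and 86, and 280 and 511 with the non-mitochondrial scaling. Nuclear subunits called between heat stress and control were 8 and 0 with a minimum mean of 0.1 and 5 FPKM and 4 with the 13-gene scaling (main value 2), between NMN and heat stress 2 at 0.1 FPKM (0), and between NMN and control 11 and 0 at 0.1 and 5 FPKM (3). With a sample left out they ranged from 1 to 3 in the first and the last of these comparisons and stayed at 0 in the other. Without ATP8, ND4L and ND3 in the sum, the complex I share turned from −0.183 to 2.93 percentage points between NMN and heat stress and from −0.284 to 3.29 between NMN and control. The causes of these changes were not tested. Deviations of same-numbered samples correlated at −0.03, 0.01 and −0.01, which shows no pairing by number but, with 2 samples per group, cannot exclude it. With a replicate block 5, 1 and 6 members were called higher in the 3 comparisons unadjusted, where 10.3%, 4.56% and 22.7% of all genes tested were higher. Adjusted, 0, 0 and 2 members were called, against 0, 0 and 445 of 4713 genes. With no depth given, precision rests on 2 samples per group.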
